A study of Mus musculus with 12 samples.

Results

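Chromatin accessibility at the loci of the Myc gene family (Myc, Mycn and Mycl) was examined in fibroblasts of mouse embryos (MEFs) and in embryonic stem cells of the mouse (mESCs). A peak was taken as a member when it overlapped the gene body of 1 of the 3 genes in the GENCODE M21 annotation (build GRCm38), extended by 50 kb on either side. This gave 41 of 91354 peaks in the set called across both cell types on the BGI sequencer (11 at Myc, 16 at Mycn and 14 at Mycl) and 37 of 87027 peaks in the corresponding Illumina set. In the sets that join both sequencers, 26 of 61891 MEF peaks and 31 of 67063 mESC peaks were members. The members were chosen by position and not by their values.

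The assay was Omni-ATAC-seq, where the transposase Tn5 inserts adapters into open DNA, so that the number of reads in a peak reflects how open the site is. MEFs were C57/Bl6 cells sorted as THY1+, and mESCs were C57/Bl6 cells sorted as THY1-/SSEA1+/EPCAM+. No treatment, transgene or deletion is given for either. Libraries MEF 1, 2 and 4 and mESC 1, 3 and 5 were each read on 2 sequencers, the DNBSEQ-G400 of BGI and the HiSeqX10 of Illumina, which makes 12 samples in 4 groups of 3, and the study asked whether the choice of sequencer alters the result. The labels do not name the embryos or lines behind the libraries, so the p-values measure the spread between these libraries, and in bulk libraries a site open in fewer cells cannot be told apart from a site less open in each cell.

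The family encodes the basic helix-loop-helix leucine zipper proteins c-MYC, N-MYC and L-MYC, which bind DNA at E-box sequences as dimers with MAX. They raise transcription of genes for ribosome production, metabolism and cell division, and proteins of the MXD group, MNT and MGA compete with them for MAX. c-MYC and N-MYC sustain self-renewal of mESCs, and c-MYC and L-MYC have been used to reprogram fibroblasts to pluripotency.

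These sequences are shown because peaks at the Mycn and Mycl promoters were more open in mESCs. The distal elements shown from these 2 loci differed more between the cell types than the promoter peaks of the genes did. Distal elements of the Myc locus also differed strongly and are not printed. The promoters run from 250 bases before to 50 bases after the start site and come from the RefSeq promoter table for GRCm38, in which 2 of the 3 genes were matched (Mycn and Mycl). The distal elements are the middle 300 bases of the peak, on the plus strand. Capitals mark matches on either strand to CCNCNCCC (KLF and SP factors), TTGGCGC (E2F), ATTGTT (SOX), CATTCC (TEAD) and TGANTCA (AP-1), and matches that overlap run together.
Mycn promoter (chr12:12941787-12942086, minus strand): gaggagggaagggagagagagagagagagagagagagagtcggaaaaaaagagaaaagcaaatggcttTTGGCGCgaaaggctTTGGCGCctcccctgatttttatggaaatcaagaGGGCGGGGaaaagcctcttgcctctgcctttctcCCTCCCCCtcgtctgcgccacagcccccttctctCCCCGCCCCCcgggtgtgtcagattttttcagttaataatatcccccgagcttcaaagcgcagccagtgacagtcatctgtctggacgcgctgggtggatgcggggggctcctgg
Mycl promoter (chr4:122995681-122995980, plus strand): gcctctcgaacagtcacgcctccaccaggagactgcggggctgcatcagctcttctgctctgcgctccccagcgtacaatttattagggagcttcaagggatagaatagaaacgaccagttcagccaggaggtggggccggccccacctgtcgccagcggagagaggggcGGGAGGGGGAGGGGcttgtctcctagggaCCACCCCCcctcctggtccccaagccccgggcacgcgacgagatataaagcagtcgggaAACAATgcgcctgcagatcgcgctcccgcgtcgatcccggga
Mycn locus, element more open in mESCs (chr12:12927189-12927488): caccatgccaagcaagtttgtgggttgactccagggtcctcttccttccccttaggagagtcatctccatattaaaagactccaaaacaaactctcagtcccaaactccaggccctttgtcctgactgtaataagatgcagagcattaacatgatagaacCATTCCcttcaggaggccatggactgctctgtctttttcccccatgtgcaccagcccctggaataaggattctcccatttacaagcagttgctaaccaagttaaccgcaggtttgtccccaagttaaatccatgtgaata
Mycn locus, element more open in MEFs (chr12:12973043-12973342): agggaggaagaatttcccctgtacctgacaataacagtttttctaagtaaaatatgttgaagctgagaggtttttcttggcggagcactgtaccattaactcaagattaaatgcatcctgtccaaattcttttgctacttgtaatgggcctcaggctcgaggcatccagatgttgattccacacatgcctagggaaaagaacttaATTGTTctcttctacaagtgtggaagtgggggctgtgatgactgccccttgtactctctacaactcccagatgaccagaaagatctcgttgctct
Mycl locus, element more open in MEFs (chr4:122990674-122990973): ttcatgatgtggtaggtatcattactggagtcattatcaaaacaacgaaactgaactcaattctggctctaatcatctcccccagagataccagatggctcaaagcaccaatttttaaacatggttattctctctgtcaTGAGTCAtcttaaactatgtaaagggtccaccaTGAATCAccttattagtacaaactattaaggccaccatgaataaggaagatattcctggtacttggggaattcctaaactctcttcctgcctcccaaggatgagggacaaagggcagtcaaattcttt
The RefSeq start of Mycl lies downstream of the GENCODE start used for the peaks, so the main Mycl promoter peak covers only the first bases of the printed Mycl sequence, and the main Mycn promoter peak lies upstream of the printed Mycn sequence. The Mycn promoter held 4 KLF and SP matches, of which a pair overlapped, and 2 E2F matches, and the Mycl promoter held 4 KLF and SP matches and 1 SOX match. Among 32851 promoters of the RefSeq table, 49.5% held the KLF and SP letters, 2.45% the E2F letters and 10.7% the SOX letters. The E2F letters were added to the search after the Mycn promoter had been seen. A match describes the letters in the window and not binding of a factor.

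Depth was similar within each cell type and higher in MEFs, where more reads had been kept. Reads in peaks of the BGI set numbered 20085886 to 21662775 in the MEF samples and 15860985 to 16911482 in the mESC samples, and in the Illumina set 20127546 to 21441767 and 15996202 to 16958488. Promoter peaks of all 10 of 10 mESC markers were higher in mESCs on BGI, with a summed 288 to 344 CPM in mESCs (read counts scaled to the total of reads in peaks of a sample) and 26.2 to 30.6 CPM in MEFs. Of 10 fibroblast markers 9 were lower in mESCs and Pdgfra was not called, with sums of 281 to 321 CPM in MEFs and 80.0 to 89.4 CPM in mESCs. Of 10 markers of blood, endothelium, endoderm, trophoblast and keratinocytes only 4 had a promoter peak (Pecam1, Gata6, Sox17 and Elf5), at a summed 47.7 to 59.7 CPM in MEFs and 54.1 to 59.9 CPM in mESCs. Among them Sox17, an endoderm factor, was higher in mESCs (3.14 and 18.6 CPM, log2 fold change 2.50), Gata6 was lower (-0.64), and Pecam1 and Elf5 were not called. No promoter peak was listed for Ptprc, Spi1, Cdh5, Cdx2, Krt5 or Krt14.

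The main promoter peak of each gene, the one with the highest mean count, gave a different picture for each family member. The main Myc peak did not differ detectably between the cell types, whereas the main Mycn peak was more open in mESCs. The main Mycl peak was moderately more open there. Differences were tested per peak with edgeR on all peaks of the set. They are given as log2 fold changes of mESC over MEF with a standard error (SE) derived from the test statistic. A peak was called when its adjusted p was under 0.05.

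Myc, which encodes c-MYC (ENSMUSG00000022346.15, chr15:61985391-61990374, plus strand), had its main promoter peak at chr15:61985226-61985727, across the annotated start. On BGI this peak had 32.7, 30.8 and 37.6 CPM in MEF 1, 2 and 4 and 32.6, 33.1 and 31.1 CPM in mESC 1, 3 and 5. The groups overlapped, and the difference was not called, at a log2 fold change of -0.13 ± 0.10 (SE; adjusted p = 0.228). Its sign rested on the scaling: with the down-sampled read totals as library sizes, which move the median of all BGI peaks by 0.14, the log2 fold change was 0.01. The Illumina samples gave 32.1, 30.7 and 40.1 CPM in MEFs and 31.6, 33.8 and 31.4 CPM in mESCs, again overlapping, with a log2 fold change of -0.13 ± 0.10 (SE; adjusted p = 0.245). The peak was called in every library by the authors, with a fold enrichment over background of 34.4 to 39.4 in MEFs and 37.0 to 40.1 in mESCs on BGI.

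Mycn, which encodes N-MYC (ENSMUSG00000037169.15, chr12:12936093-12941914, minus strand), had its main promoter peak at chr12:12942346-12942847, centred 682 bp upstream of the start. On BGI it had 16.6, 15.8 and 20.3 CPM in the MEF samples and 33.5, 38.8 and 39.7 CPM in the mESC samples. Every mESC sample lay above every MEF sample, and the log2 fold change was 1.02 ± 0.11 (SE; adjusted p = 1.69e-07). On Illumina the levels were 19.1, 17.8 and 23.4 CPM in MEFs and 34.9, 39.7 and 36.1 CPM in mESCs, without overlap, for a log2 fold change of 0.83 ± 0.11 (SE; adjusted p = 1.23e-06).

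Mycl, which encodes L-MYC (ENSMUSG00000028654.13, chr4:122995652-123002485, plus strand), had its main promoter peak at chr4:122995274-122995775. On BGI it had 17.0, 17.8 and 22.9 CPM in the MEF samples and 28.0, 27.6 and 29.7 CPM in the mESC samples. The groups did not overlap, and the log2 fold change was 0.50 ± 0.12 (SE; adjusted p = 0.000742), below that of Mycn. On Illumina the values were 21.7, 20.2 and 25.8 CPM in MEFs and 33.8, 30.8 and 31.1 CPM in mESCs, also without overlap, and the log2 fold change was 0.45 ± 0.10 (SE; adjusted p = 0.000614). For comparison, the median log2 fold change over all 29802 promoter peaks of the BGI set was -0.13.

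The order of the main promoters on BGI differed between the cell types. All these peaks are 502 bp wide, so their CPM can be compared per length. The order covers only the highest peak of each gene and not its whole promoter. The main Mycn peak lies upstream of the start, and the Mycn peak over the start had a mean of 17.7 CPM in mESCs on BGI. In MEFs on BGI, Myc had the most accessible main promoter at 33.7 ± 3.53 CPM (SD, n = 3), above Mycl at 19.2 ± 3.15 CPM and Mycn at 17.5 ± 2.39 CPM, and the latter pair overlapped in their samples. In mESCs Mycn came first at 37.3 ± 3.37 CPM, followed by Myc at 32.2 ± 1.04 CPM and Mycl at 28.4 ± 1.13 CPM, with no overlap between neighbours in this order. On Illumina Mycn was again first in mESCs at 36.9 ± 2.47 CPM, but Myc at 32.3 ± 1.3 CPM and Mycl at 31.9 ± 1.64 CPM overlapped, so the order of these last genes was not resolved.

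**Figure D1:**
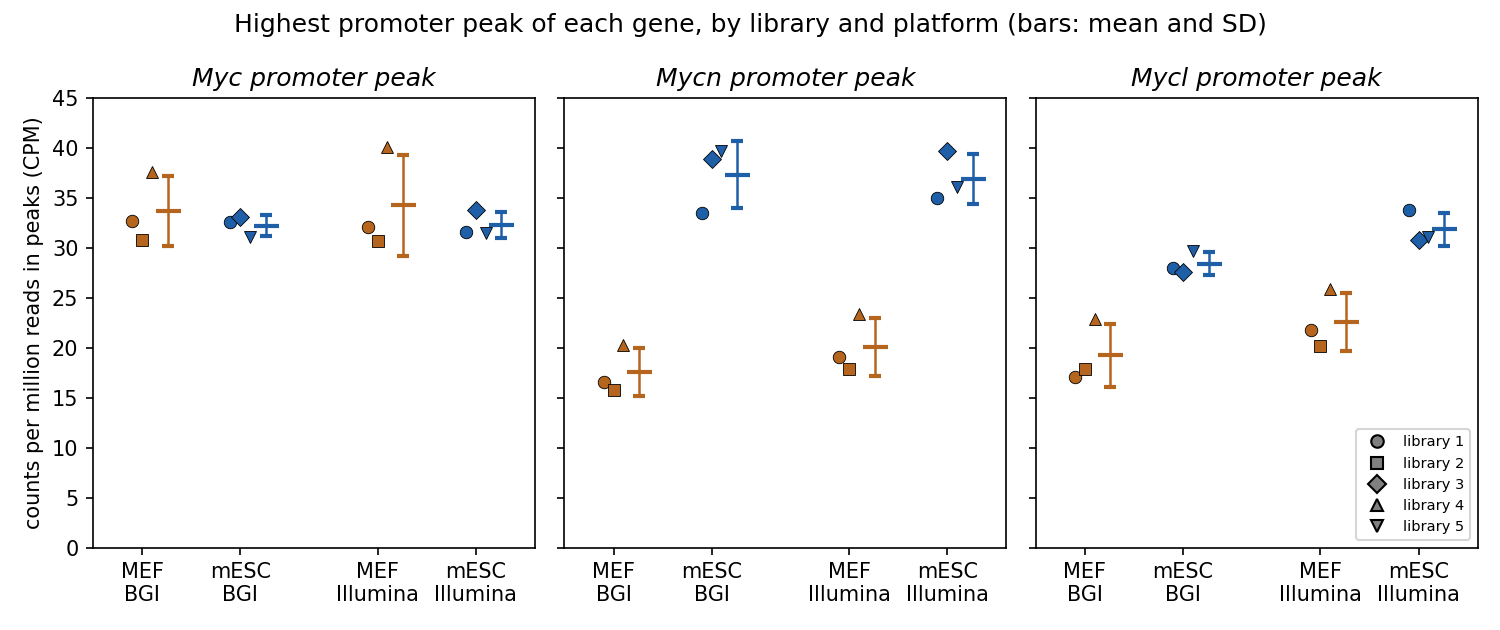
The y axis gives CPM of the main promoter peak of each gene, with a point for each library on BGI and on Illumina and bars for the mean and SD of the 3 libraries. MEF and mESC points overlap at Myc, whereas at Mycn (17.5 against 37.3 CPM on BGI) and Mycl (19.2 against 28.4 CPM) the mESC points lie above.

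Each gene had 4 peaks within 1 kb of one of its annotated start sites in the BGI set, and the remaining promoter peaks did not all move with the main one. At Myc the 3 others were lower in mESCs. The peak 427 bp upstream of the start (chr15:61984713-61985214) had 27.1, 24.8 and 30.6 CPM in MEFs and 16.9, 18.3 and 14.8 CPM in mESCs, without overlap, and a log2 fold change of -0.79 ± 0.12 (SE; adjusted p = 1e-05). Thus the flank of the Myc promoter differed between the cell types where its centre was not called. The peaks 1850 and 2841 bp downstream of the start were lower by smaller amounts, at -0.38 ± 0.11 and -0.51 ± 0.21 (SE), and their samples overlapped between the groups. The matching Illumina peaks did not overlap between the groups, at -0.54 ± 0.10 (SE; adjusted p = 7.47e-05) and -0.62 ± 0.21 (SE; adjusted p = 0.0128), and kept their calls in all 12 alternatives run. On BGI the peak at 1850 bp lost its call at the down-sampled read totals (adjusted p = 0.0772), and the peak at 2841 bp did so there (0.111), with RLE size factors (0.0521), without MEF 4 (edgeR adjusted p = 0.182), without mESC 3 (0.1603) and without mESC 5 (0.0788).

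At Mycn, 2 of the 3 other promoter peaks were higher in mESCs. The peak that covers the start itself (chr12:12941581-12942082) had 11.03, 9.20 and 10.01 CPM in MEFs and 17.7, 20.4 and 14.9 CPM in mESCs, and its log2 fold change was 0.74 ± 0.15 (SE; adjusted p = 0.000211). It contains most of the Mycn promoter sequence printed above. A peak 1220 bp into the gene rose by 0.73 ± 0.23 (SE; adjusted p = 0.00691), a call that was lost without mESC 3 (adjusted p = 0.0621). The exception was the peak 1753 bp downstream of the start (chr12:12939910-12940411), which had 8.08, 8.55 and 11.1 CPM in MEFs and 4.92, 5.85 and 4.41 CPM in mESCs and fell by 0.93 on the log2 scale (SE 0.20; adjusted p = 0.000306). No peak of the Illumina set of both cell types covered at least 50% of it, although a peak of the authors' MEF list on Illumina did. The Illumina samples counted over the same BGI interval gave -1.19 (edgeR adjusted p = 7.31e-06).

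At Mycl the other promoter peaks were divided. The peak 3069 bp downstream of the annotated start (chr4:122998471-122998972) rose from 4.43, 3.88 and 3.73 CPM in MEFs to 9.39, 9.70 and 10.1 CPM in mESCs, a log2 fold change of 1.21 ± 0.19 (SE; adjusted p = 1.07e-05). The peaks 913 and 1633 bp downstream were lower in mESCs, at -0.83 ± 0.21 and -0.41 ± 0.17 (SE; adjusted p = 0.00167 and 0.0379). The latter call was not made on Illumina, where the matching peak had -0.34 (edgeR adjusted p = 0.0918) but was called without MEF 4 (-0.55, adjusted p = 0.00295) and with the BGI samples on its interval (-0.41, adjusted p = 0.0363). On BGI the call was lost with DESeq2 (adjusted p = 0.0549), RLE size factors (0.0651), the down-sampled read totals (0.158), a minimum mean count of 50 (0.0522), the Illumina samples on the same interval (0.0773) and without MEF 1 (adjusted p = 0.0685), MEF 2 (0.176), mESC 3 (0.223) or mESC 5 (0.0704).

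Within 50 kb, calls were mostly lower in mESCs at Myc and Mycl and mostly higher at Mycn. On BGI, 35 of 41 member peaks were called, 18 higher and 17 lower in mESCs, against 84.1% of all peaks called, 40.9% higher and 43.2% lower. The samples of the cell types did not overlap at 32 of 41 peaks, where the value over all peaks was 85.1%, so the share of members that differed was near that of all peaks. The split by locus was uneven: 2 of 11 Myc peaks were higher and 7 lower, 13 of 16 Mycn peaks were higher and 2 lower, and 3 of 14 Mycl peaks were higher and 8 lower. The median log2 fold change was -0.51 at Myc, 2.0 at Mycn and -0.60 at Mycl, beside -0.08 over all peaks. The balance at Mycl rested on the window: with 10 kb 3 peaks were higher and 3 lower on BGI and 3 higher and 1 lower on Illumina, and with 100 kb 7 were higher and 8 lower on BGI and 7 higher and 5 lower on Illumina. At Myc and Mycn the majority kept its direction in both windows on both sequencers.

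The Illumina set gave 31 of 37 called, 17 higher and 14 lower, against 84.5%, 42.1% and 42.4% of all peaks, and the samples did not overlap at 31 of 37 peaks, against 85.6%. At Mycn 12 of 14 Illumina peaks were higher and 2 lower, at Myc 2 of 11 higher and 7 lower, and at Mycl 3 of 12 higher and 5 lower. Both sequencers read the same 6 libraries, so this repeats the sequencing and not the cells. Of the 41 BGI peaks 34 were covered by an Illumina peak over at least 50% of their width; 28 of these were called on both sequencers, 1 on BGI alone and 5 on neither. The largest gap between the 2 log2 fold changes of a matched pair was 0.94, and the median gap was 0.15.

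Summed over all member peaks of a locus, the Mycn window held 80.4 ± 3.62 CPM in MEFs and 236 ± 5.66 CPM in mESCs on BGI (SD, n = 3). The Myc window held 161 ± 8.12 CPM in MEFs and 123 ± 2.02 CPM in mESCs, and the Mycl window 160 ± 3.08 and 140 ± 12.9 CPM. On Illumina the sums were 76.3 ± 2.13 and 213 ± 14.1 CPM at Mycn, 157 ± 6.15 and 114 ± 0.132 CPM at Myc, and 161 ± 1.84 and 145 ± 11.6 CPM at Mycl. Mycn was the locus whose total was higher in mESCs.

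**Figure D2:**
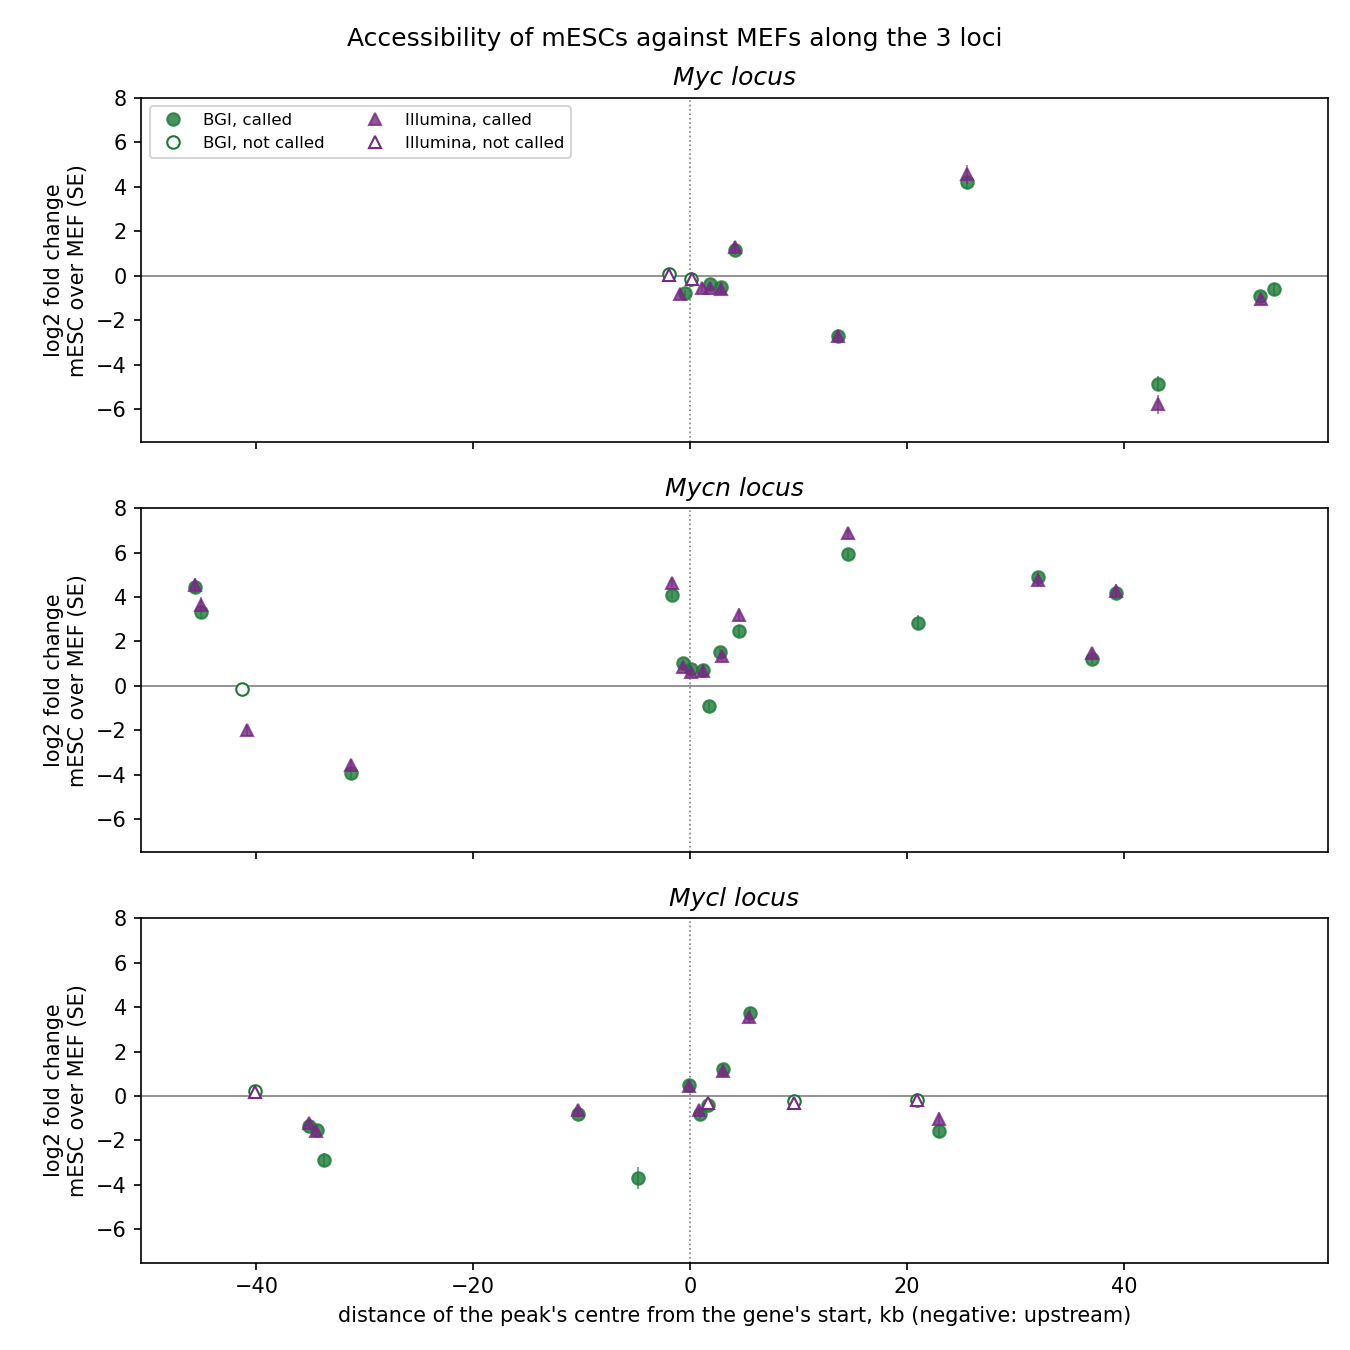
Each point is a member peak, placed by the distance of its centre from the gene's start in kb (x axis) and its log2 fold change of mESC over MEF with SE (y axis), with circles for BGI, triangles for Illumina and open symbols for peaks not called. Most Mycn peaks lie above 0, up to 5.94 on BGI and 6.88 on Illumina, and points at Myc and Mycl lie on both sides.

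The largest changes at each locus lay outside the promoters of the family. At Mycn the strongest was an intergenic element 14575 bp downstream of the start (chr12:12927088-12927589), beyond the end of the gene, whose middle is printed above. On BGI it had 0.739, 0.497 and 0.199 CPM in the MEF samples (16, 10 and 4 reads) and 30.6, 32.3 and 31.6 CPM in the mESC samples (486, 546 and 509 reads). It was close to empty in every MEF library and near the level of the Myc promoter in every mESC library, with a log2 fold change of 5.94 ± 0.23 (SE; adjusted p = 5.28e-13). The authors' peak caller placed no MEF summit in it and gave it a -log10 p of 197 to 219 in the mESC samples. The Illumina peak at this site had 0.187, 0.199 and 0.295 CPM in MEFs and 27.8, 30.1 and 27.0 CPM in mESCs and a log2 fold change of 6.88 ± 0.22 (SE; adjusted p = 6.02e-14).

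Next in size at Mycn was a peak 32068 bp downstream of its start (chr12:12909595-12910096), at a start site of the predicted gene Gm40271. It had 0.508, 0.795 and 0.996 CPM in MEFs and 24.6, 26.1 and 21.4 CPM in mESCs on BGI, for 4.91 ± 0.21 (SE; adjusted p = 1.81e-12). On the other side of the gene, 45633 bp upstream (chr12:12987297-12987798), a peak at the start site of the non-coding gene Gm35208 had 0.554, 0.596 and 0.0996 CPM in MEFs and 9.90, 9.93 and 9.75 CPM in mESCs and a log2 fold change of 4.46 ± 0.35 (SE; adjusted p = 1.69e-09). The peak nearest to the promoter with a difference of this order, 1659 bp upstream of the start (chr12:12943323-12943824), was picked after its values were seen. It had 1.25, 2.09 and 1.19 CPM in MEFs and 25.2, 28.9 and 27.0 CPM in mESCs, a log2 fold change of 4.09 ± 0.19 (SE; adjusted p = 4.19e-12), and was the one member with the ESRRB letters TCAAGGTCA, which 1.42% of all BGI peaks hold.

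Open chromatin at Mycn was not confined to mESCs. An intergenic element 31278 bp upstream (chr12:12972942-12973443) had 15.1, 12.5 and 10.4 CPM in MEFs and 0.757, 1.36 and 0.497 CPM in mESCs, the reverse of the elements above, and fell by 3.91 on the log2 scale (SE 0.29; adjusted p = 9.98e-10). On Illumina it had 14.0, 15.2 and 9.80 CPM in MEFs and 1.06, 1.002 and 1.36 CPM in mESCs, with a log2 fold change of -3.55 ± 0.24 (SE; adjusted p = 3.55e-10). Together with the promoter peak 1753 bp downstream it made up the 2 Mycn peaks called lower on BGI. A further BGI peak 41278 bp upstream (chr12:12982942-12983443) was not called, at -0.16 ± 0.23 (SE; adjusted p = 0.531), although an Illumina peak that shares 26% of its width with it was called at -2.0 (the Illumina samples over the BGI interval gave -0.34).

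The Myc window held elements open mainly in MEFs and an element open mainly in mESCs. A site 43181 bp downstream of the start (chr15:62028322-62028823) had 14.6, 13.7 and 7.97 CPM in MEFs (316, 276 and 160 reads) and 0.504, 0.237 and 0.559 CPM in mESCs (8, 4 and 9 reads), with no mESC summit. Its log2 fold change was -4.86 ± 0.34 (SE; adjusted p = 4.91e-10) on BGI and -5.79 ± 0.42 (SE; adjusted p = 6.08e-10) on Illumina. A site 13650 bp downstream (chr15:61998791-61999292) had 21.1, 16.2 and 9.06 CPM in MEFs and 2.77, 1.77 and 2.92 CPM in mESCs, at -2.71 ± 0.28 (SE; adjusted p = 8.22e-08). In both, MEF 4 was the lowest MEF library but remained above every mESC library.

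Between these MEF elements lay the Myc peak with the largest rise, 25509 bp downstream (chr15:62010650-62011151). It had 0.323, 0.348 and 0.498 CPM in MEFs (7, 7 and 10 reads) and 8.07, 9.87 and 5.34 CPM in mESCs (128, 167 and 86 reads) and a log2 fold change of 4.24 ± 0.35 (SE; adjusted p = 4.15e-09), while the matching Illumina peak gave 4.57 ± 0.43 (SE). The other Myc peak that rose lay in an exon of Myc 4145 bp from its start (chr15:61989286-61989787), at 2.91, 2.68 and 2.44 CPM in MEFs and 4.79, 7.15 and 6.96 CPM in mESCs and 1.17 ± 0.25 (SE; adjusted p = 0.000276). A promoter peak of Pvt1, the long non-coding RNA gene beside Myc, 52602 bp downstream (chr15:62037743-62038244), fell from 10.1 ± 0.29 CPM to 5.63 ± 0.74 CPM (SD, n = 3), at -0.91 ± 0.17 (SE; adjusted p = 0.000111).

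At Mycl the largest decrease in mESCs lay 4828 bp upstream of the start (chr4:122990573-122991074). This peak had 6.97, 5.67 and 1.99 CPM in MEFs (151, 114 and 40 reads) and 0.378, 0.237 and 0.559 CPM in mESCs (6, 4 and 9 reads), a log2 fold change of -3.70 ± 0.50 (SE; adjusted p = 2.12e-06). The MEF libraries varied by more than 3-fold here, with MEF 4 the lowest, and no Illumina peak covered 50% of it. The Illumina samples counted over this interval gave a log2 fold change of -4.22 (edgeR adjusted p = 6.7e-07). Its sequence, printed above, holds 2 AP-1 matches, and so did sites elsewhere: 8 of 41 BGI members held the AP-1 letters, 19.5% against 25.2% of all BGI peaks.

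Further upstream of Mycl, a group of 3 peaks at the start of 4933421A08Rik and Mfsd2a, which encodes a lipid transporter, was lower in mESCs. The most changed of them (chr4:122961634-122962135) had 6.46, 6.06 and 4.58 CPM in MEFs and 0.946, 0.591 and 0.870 CPM in mESCs, at -2.89 ± 0.32 (SE; adjusted p = 1.36e-07). No peak of the Illumina set overlapped it, and the Illumina samples over its interval gave a smaller decrease of -2.30. On the far side, a peak in an intron of Trit1, a tRNA-modifying enzyme gene (chr4:123018338-123018839), had 8.08, 7.11 and 3.88 CPM in MEFs and 2.46, 1.48 and 2.73 CPM in mESCs, at -1.59 ± 0.31 (SE; adjusted p = 0.000123), whereas the matching Illumina peak had a smaller decrease of -1.02 ± 0.28 (SE; adjusted p = 0.00259). The largest rise at Mycl was in its own body, 5487 bp from the start and over an exon (chr4:123000889-123001390), with 1.02, 0.746 and 0.448 CPM in MEFs and 11.9, 8.81 and 10.6 CPM in mESCs, a log2 fold change of 3.73 ± 0.28 (SE; adjusted p = 1.32e-09). The Illumina peak there gave 3.55 ± 0.25 (SE; adjusted p = 5.59e-10).

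**Figure D3:**
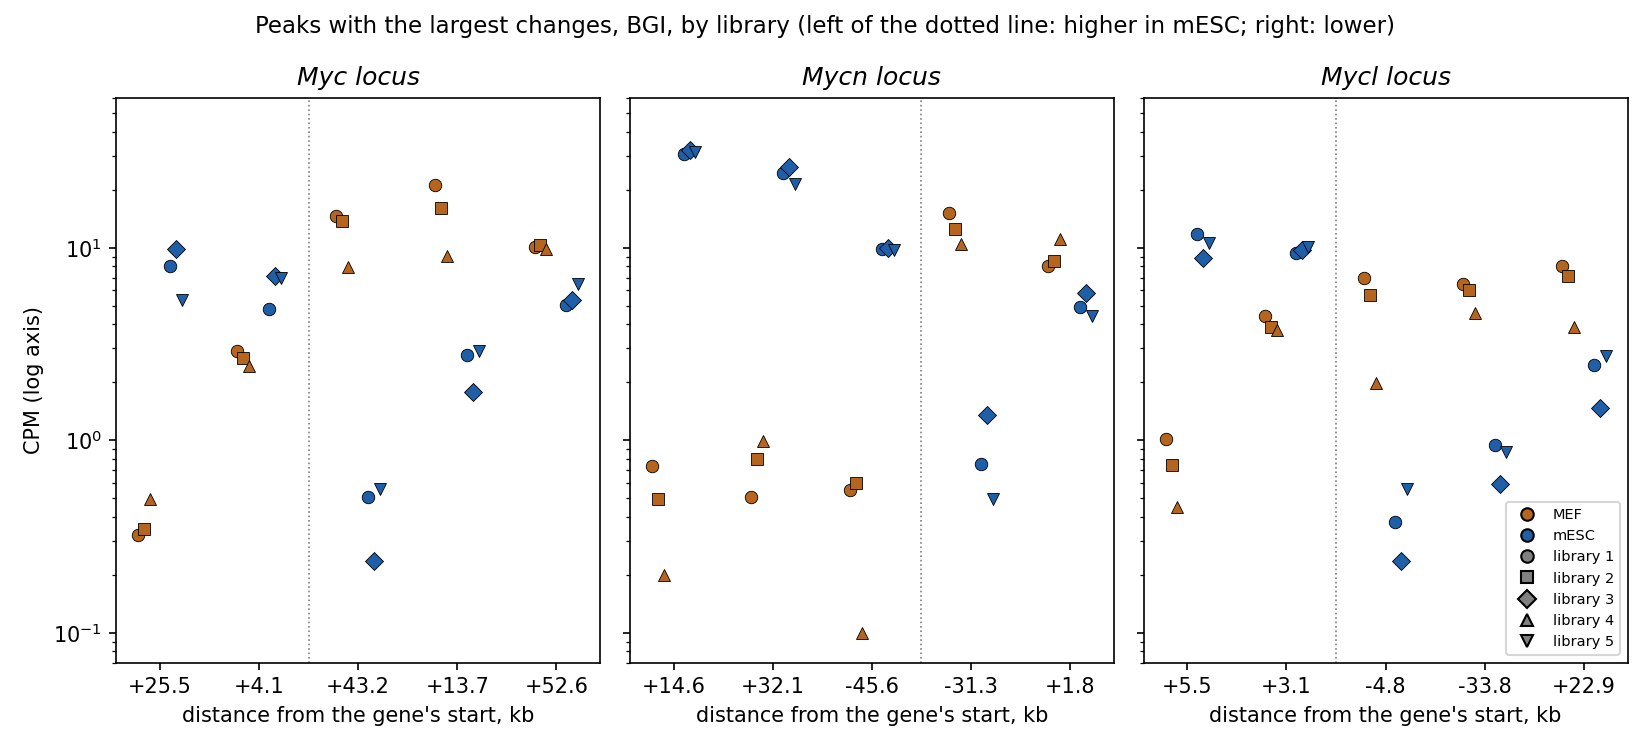
The y axis gives BGI CPM on a log axis for each library, with MEF in orange, mESC in blue and a shape for each library number, and the x axis names each peak by its distance from the gene's start in kb. At the Mycn peak 14575 bp downstream the mESC points are at 30.6 to 32.3 CPM and the MEF points at 0.199 to 0.739 CPM, and right of each dotted line the order is turned.

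MEF 4 was the lowest MEF library at the strongest MEF elements. At 5 of 5 BGI members lower in mESCs by at least 2 on the log2 scale, its level was below the mean of MEF 1 and MEF 2, by a median log2 difference of -0.79. Over all 20303 peaks of this size the median was -0.15 and 62.9% were lower in MEF 4, and over all 91354 peaks it was 0.03 and 46.4%. On Illumina the count was 4 of 4 members, at a median of -0.55, beside -0.15 over 18110 peaks. Without MEF 4 these 5 peaks were called as well, with log2 fold changes from -5.10 to -2.99.

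The remaining members outside the promoters of the family filled in the same patterns. At Mycn, the intronic peak 2795 bp from the start had 4.89, 4.92 and 7.02 CPM in MEFs and 16.6, 15.6 and 18.7 CPM in mESCs, at 1.53 ± 0.17 (SE; adjusted p = 1.44e-07). The exonic peak at 4473 bp, an intergenic peak at 21002 bp and a second promoter peak of Gm35208 were higher in mESCs by 2.47, 2.84 and 3.35 on the log2 scale. The Illumina peaks matching the exonic and Gm35208 peaks gave 3.21 and 3.66. The Illumina samples over the interval at 21002 bp gave 2.88. At Mycl, an intergenic peak 10349 bp upstream that holds the E-box letters was lower at -0.80 ± 0.18 (SE; adjusted p = 0.000421), the other peaks at Mfsd2a were lower by -1.33 and -1.53, and peaks in an intron of Mfsd2a (0.22) and 9575 bp downstream of the Mycl start (-0.22) were not called. The Mfsd2a intron peak was called in DESeq2 (0.26, adjusted p = 0.04), at the down-sampled read totals (0.36, adjusted p = 0.0123) and without mESC 3 (0.34, adjusted p = 0.0158). At Myc, the promoter peak of Gm37947 was not called (0.08), and a second Pvt1 peak, 53810 bp downstream, fell by 0.61 with overlapping samples, a call lost with DESeq2 (adjusted p = 0.0605), RLE size factors (0.0697), the down-sampled read totals (0.12), a minimum mean count of 50 (0.0575) and without MEF 1 (edgeR adjusted p = 0.146), MEF 2 (0.158), mESC 1 (0.152) or mESC 3 (0.218).

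Sequence motifs were read in the 41 BGI members and in all peaks of that set. The E-box CACGTG, the preferred site of MYC and MAX dimers, was in 4 members (9.76%) and in 8.89% of all peaks. The KLF and SP letters were in 27 members (65.9% against 58.2%), the TEAD letters in 14 (34.1% against 31.7%) and the SOX letters in 8 (19.5% against 18.2%). The octamer ATGCAAAT was in 0 members and 3.21% of all peaks, and the E2F letters in 4 members, 9.76% against 2.59%. These 4 include the peak at the Mycn start, whose sequence had prompted the E2F search, so this share is not an independent observation. The octamer and SOX letters are parts of the motifs of the pluripotency factors OCT4 and SOX2, and no match says only that the letters are not in these windows.

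Genes beside the family shared their windows. Of 11 genes with a start site inside the windows 9 had a promoter peak on BGI, 3 higher, 4 lower and 2 not called, beside 72.3% of all promoter peaks called. The 4 lower genes rest on 2 peaks, since Mfsd2a and 4933421A08Rik share a peak, as do Pvt1 and Gm27913. On Illumina 3 were higher, 5 lower and 1 not called, and the peak read for the fifth lower gene, Gm37947, is also a promoter peak of Myc. The Trit1 promoter, 20928 bp downstream of the Mycl start, had 18.3, 17.7 and 17.7 CPM in MEFs and 15.3, 15.6 and 19.5 CPM in mESCs and was not called, at -0.16 ± 0.13 (SE; adjusted p = 0.242). The promoter peaks of the non-coding gene 4930519A11Rik, in the Mycn window, were higher in mESCs at 4.16 ± 0.24 and 1.19 ± 0.18 (SE).

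The partners and antagonists of MYC were read as a list, each at its highest promoter peak. The values over all promoter peaks, here and for the neighbours and the MYC targets, also include lower peaks of the same genes. Of 10 genes of the MAX network, 2 were higher and 7 lower in mESCs on BGI, with a median log2 fold change of -0.29 beside -0.13 over all promoter peaks, of which 72.3% were called, 31.3% higher and 41.0% lower. On Illumina 1 was higher, 7 were lower and 2 were not called, and of all promoter peaks 74.0% were called, 31.6% higher and 42.4% lower. Max, the shared partner, was not called, at 82.2 ± 6.16 CPM in MEFs and 83 ± 4.76 CPM in mESCs (SD, n = 3; adjusted p = 0.577). Mlxip, whose protein MondoA responds to glucose, was lower at -0.85 ± 0.10 (SE), and its relative Mlxipl, which encodes ChREBP, was higher, from 6.42 ± 1.32 to 17.7 ± 1.08 CPM (SD, n = 3), at 1.40 ± 0.16 (SE; adjusted p = 2.84e-07). The antagonists Mnt (-0.49), Mxd3 (-0.45), Mga (-0.32), Mxd1 (-0.25) and Mxd4 (-0.25) were lower, and Mxi1 was higher at 0.20 on BGI (edgeR adjusted p = 0.0458) and not called on Illumina (adjusted p = 0.0535).

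Of 15 genes known as targets of MYC, 2 were higher and 7 lower on BGI and 6 were not called, at a median of -0.21, beside 72.3% of all promoter peaks called. Illumina also gave 2 higher, 7 lower and 6 not called, but with other genes among the lower ones: Eno1, an enzyme of glycolysis, was lower on BGI (adjusted p = 0.0415) and not called on Illumina (0.242), and Fbl was lower on Illumina (0.0274) and not called on BGI (0.0579). Tert, the catalytic subunit of telomerase, rose from 9.78 ± 1.29 to 27.0 ± 0.491 CPM (SD, n = 3), at 1.40 ± 0.13 (SE; adjusted p = 1.05e-08), and Tfam, a mitochondrial DNA factor, rose by 0.27. Ldha, which encodes lactate dehydrogenase A, fell from 31.4 ± 1.19 to 11.2 ± 0.768 CPM (SD, n = 3), at -1.55 ± 0.11 (SE; adjusted p = 7.56e-10). The ornithine decarboxylase gene Odc1 (-0.41), Cad (-0.34) and the cyclin gene Ccnd2 (-0.45) were among the others that fell, and the nucleolar genes Ncl, Npm1 and Nop56 were not called on either sequencer.

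The promoters whose levels were most like those of the family were found among 15125 genes by Pearson's r of log2 (CPM + 0.5) over the 6 BGI samples. For Myc these were Cdh23 (0.994), Ccnq (0.992) and Zfp839 (0.990). For Mycn they were Bsn, Chl1 and Chst3, each at 0.999, and for Mycl they were Helq and Mrps18c, which share a promoter peak, at 0.997, and Rmnd5b at 0.994. For Mycn and Mycl the contrast between the cell types enters these values, whereas the genes most like Myc differed little between the cell types and were highest in MEF 4, as the Myc promoter was. With 6 samples the values are a description with no test.

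The sequencers were then compared within each cell type, which is the question of the study. In MEFs 0 of 26 member peaks were called by edgeR, against 4.06% of all peaks. DESeq2 called 2 of them, and 12.8% of the peaks it gave an adjusted p. In mESCs 1 of 31 was called by edgeR, against 3.23%. With the library as a replicate block, which uses that both sequencers read the same libraries, 11 MEF members were called (3 higher and 8 lower on BGI) against 29.2% of all peaks, and 6 mESC members (2 higher and 4 lower) against 21.3%. Leaving out a library moved the unpaired counts: in MEFs 5 members were called without MEF 4, against 9.91% of all peaks in that fit, and in mESCs 0 were called without mESC 1, 3 or 5, against 0.00149%, 2.05% and 0.0% of all peaks.

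The mESC peak called in both fits was a promoter peak of Mycl, 536 bp downstream of the gene's start (chr4:122995938-122996439), and 74.9% of its bases were G or C. It had 16.1, 11.3 and 11.7 CPM on BGI and 19.6, 18.5 and 21.0 CPM on Illumina, lower on BGI without overlap, at a log2 ratio of -0.65 ± 0.14 (SE; adjusted p = 0.0235; with the block 5.88e-13). The MEF peak at about this place (chr4:122996234-122996816, 67.9% GC) had 11.2, 11.5 and 16.3 CPM on BGI and 18.8, 18.7 and 20.2 CPM on Illumina and was called with the block only (edgeR adjusted p = 0.0691; with the block 1.6e-08). At the Mycn start (chr12:12941579-12942108, 63.0% GC) the MEF samples gave 11.3, 9.65 and 10.3 CPM on BGI and 15.7, 13.8 and 12.6 CPM on Illumina, at -0.45 (edgeR adjusted p = 0.116; with the block 5.83e-05).

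Members higher on BGI were poorer in GC. The mESC peak upstream of Myc (chr15:61983171-61983694, 48.7% GC) had 16.6, 16.3 and 18.8 CPM on BGI and 13.1, 11.4 and 14.2 CPM on Illumina, at 0.37 (edgeR adjusted p = 0.13; with the block 0.000148). In MEFs the 8 members lower on BGI in the blocked fit had a median GC content of 63.6%, the 3 higher ones 45.9% and the 15 not called 49.4%. Across members the log2 ratio of BGI to Illumina and GC content had a Spearman rho of -0.775 in MEFs (26 peaks) and -0.739 in mESCs (31 peaks), and across all peaks -0.578 and -0.551. The peaks share libraries and neighbouring bases, so these values are descriptions.

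**Figure D4:**
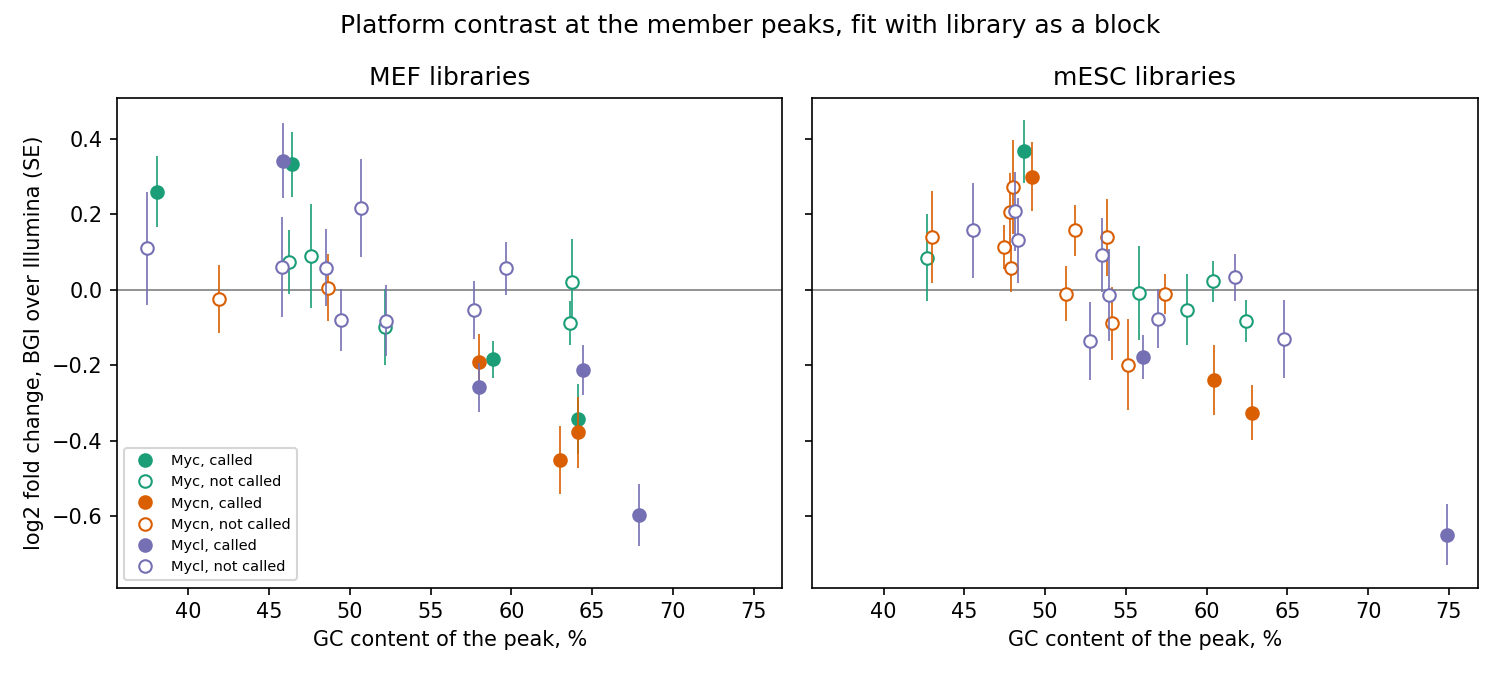
The x axis gives the GC content of each member peak in percent and the y axis the log2 ratio of BGI to Illumina with SE from the fit with the library as a replicate block, for MEFs (left) and mESCs (right), with colours for the loci and filled points for called peaks. Called points above 0 have a GC content under 50% and called points below 0 lie at 56.1% or more, with the Mycl peak of 74.9% lowest in mESCs.

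Whether the contrast between the cell types differed between sequencers was tested as an interaction on the BGI peak set. In edgeR 0 of 41 members were called, against 0.0% of all peaks. An unadjusted p under 0.05 was found at 1 member and at 2386 of all 91354 peaks. With the replicate block 0 members were called, against 0.386% of all peaks. This member was the peak 1850 bp downstream of the Myc start, where the log2 fold changes differed by 0.32 (unadjusted p = 0.0411; adjusted p with the block 0.0558).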

How the data were processed

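Per the study's methods, the authors mapped reads with Bowtie2 to the mouse build GRCm38 (mm10), removed duplicate and mitochondrial reads, kept mapping quality of at least 10, down-sampled to 60 M reads per MEF and 45 M per mESC sample, called peaks with MACS2 in each sample (p 0.01), extended summits by 250 bp and kept peaks with a depth-scaled score of at least 3 in at least 2 samples. The deposited count tables hold raw read counts per peak. The deposited peak lists give the summit fold enrichment (a ratio over background) and its -log10 p-value, which were used as descriptions, and the authors' lists of reproducible peaks give positions only (start and end of each interval).

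Counts were tested with edgeR 4.0.16 (R 4.3.3; TMM, filterByExpr, quasi-likelihood F test, two-sided, Benjamini-Hochberg over all peaks of the set, threshold 0.05). The SE is the size of the log2 fold change divided by the square root of its F statistic, and so is approximate. CPM are counts scaled to the reads in peaks of each sample, without TMM. Unsuffixed columns of the count tables were read as Illumina: per library, the ratio of suffixed to unsuffixed counts followed the ratio of BGI to Illumina summit enrichment with a Spearman rho of 0.772 to 0.817. All columns were matched (0 left over). No replicate numbers pair mESCs with MEFs. Between sequencers the same libraries were read, and deviations from the group mean correlated at 0.617 to 0.837 within a MEF library and 0.515 to 0.725 within an mESC library, against -0.675 to 0.289 and -0.511 to -0.115 between libraries. Deviations from a group's own mean cancel out over its libraries, which by itself pulls the values between libraries down. The tests were checked on simulated counts, where the interaction test found a smaller share of the altered peaks than the other tests did.

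The members, lists and tests were chosen with earlier results of these data known. Peaks described in full were the main promoter peak of each gene and, per locus, the called BGI peaks with the largest log2 fold change, up to 3 in each direction; the promoter of a listed gene is its promoter peak (within 1 kb of a start site) with the highest mean count. Alternatives were DESeq2 1.42.0, RLE size factors, down-sampled depths as library sizes, other filters and windows, the other sequencer's samples on the same peaks, the replicate block and leaving out each library.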

Additional observations from a re-analysis of the deposited data

How the results depend on the processing

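Of the main results under the alternatives, 10 counts moved by over 1.5 times or left 0, 1 value turned in sign, and the other 112 values stayed within these limits (counts within 1.5 times, fold changes with the same direction and side of the threshold). The main Myc promoter peak turned to 0.012 on BGI with library sizes at the down-sampled depths (edgeR adjusted p = 0.925). It was not called under any alternative run. The main Mycn peak stayed called at 0.85 to 1.17 on BGI and 0.72 to 0.97 on Illumina. The main Mycl peak stayed called at 0.45 to 0.64 and 0.34 to 0.58. Of the 35 BGI members called between the cell types, 23 also differed by 1 or more on the log2 scale. The share of all peaks past that cut was not counted, so 23 cannot be ranked as high or low. For scale, the log2 fold changes of all 91354 BGI peaks had quartiles of -1.57 and 1.87. With a window of 10 kb the BGI count was 19 of 22 and the Illumina count of 31 became 17 of 21. That window holds fewer peaks by construction. Without 1 library the counts were 32 to 34 on BGI and 30 to 32 on Illumina. Between sequencers, the count in MEFs was 11 with the replicate block, 2 with DESeq2 and 0 to 5 without 1 library, and in mESCs it was 6 with the block and 0 without each library in turn. The cause of these shifts was not tested. Among single peaks, the BGI peak 41278 bp upstream of Mycn ranged from -0.33 to 0.10 without 1 library (0.10 without MEF 1 and 0.09 without mESC 3), and the Illumina peak at Gm37947 beside Myc from -0.014 to 0.082 (-0.014 without MEF 4 or mESC 5). With the other sequencer's samples on the same BGI peaks, the Mycn element 14575 bp downstream was at 7.0 and the Myc element 43181 bp downstream at -5.79. Depth limits the lowest levels: sites with 4 to 16 reads in a library carry large counting error.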
